A study of Arabidopsis thaliana with 11 samples.

Results

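Chromatin-bound RNA from which only ribosomal RNA had been removed was prepared and sequenced as 2 separate pairs of samples in this series, under the names CB-RNA and RNAe+RNAf. The comparison asks how closely a second preparation of the same kind of RNA returned the abundance of each gene and the splicing state of each intron, and which genes differed. A gene was compared when its exonic reads, summed over the 5′ and 3′ splice site windows of all its introns, reached 20 in both preparations, which held for 14868 of the 22121 genes in the tables. An intron was compared for its 2 sites together when it had at least 20 exonic reads at each site in both preparations, which held for 58757 of 121244 introns.

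Both groups were Col-0 seedlings (the reference accession of Arabidopsis thaliana), 10 days old, with no treatment of the plants, and each deposited table holds 1 set of values pooled over 2 samples. Nuclei were isolated, chromatin was washed with a urea buffer and the RNA left on it was depleted of rRNA with probes. The labels of both groups are alike except for the title, and how the preparations differed (plants, day, time of harvest) was not given in the sources used here. The series also holds chromatin-bound RNA without polyadenylated RNA (RNAe, 2 samples), the polyadenylated chromatin-bound RNA (RNAf, 2 samples) and mRNA of whole seedlings (3 samples). These 3 tables serve below only to place the difference between both preparations. A pooled table gives no spread between samples, so no test was possible, and the intervals given are 95% counting intervals. They cover counting error only and are too narrow, since 1 spliced read can be counted at both sites of an intron and no molecular identifiers are named. In whole seedlings, fewer cells of a type and less RNA per cell cannot be told apart.

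RNA that stays on chromatin through detergent and urea is largely RNA still held by RNA polymerase II, so the share of reads on a gene follows its recent transcription more closely than its stable mRNA. In plants, transcription of a large part of the genome follows the time of day. CCA1, LHY, the LNK genes, PRR9 and PRR7 belong to the morning part of the circadian clock, and PRR5, PRR3 and TOC1 to its afternoon and evening part. The light-harvesting genes are under control of the clock. Genes of darkness and sugar starvation such as ASN1 are repressed by light and sugar. An intron that is still in the RNA leaves reads just inside its ends. Intronic over exonic reads at an end, the SS ratio, falls as the intron is removed.

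Upstream sequences of 3 genes and sequences of 4 introns on which the results turn are shown here. The upstream windows belong to clock and photosynthesis genes that were higher in CB-RNA. They cover the 300 bases before the annotated gene start, in TAIR10.1 coordinates of RefSeq, and no other annotated gene lies in them. Capitals mark any match, on either strand, to the evening element (AAAATATCT), the G-box (CACGTG), the heat shock element (GAANNTTC), the W-box (TTGAC), the ABRE (ACGTGNC, which can overlap a G-box) or the DRE core (CCGAC).
PRR7, chr5:642031-642330, - strand: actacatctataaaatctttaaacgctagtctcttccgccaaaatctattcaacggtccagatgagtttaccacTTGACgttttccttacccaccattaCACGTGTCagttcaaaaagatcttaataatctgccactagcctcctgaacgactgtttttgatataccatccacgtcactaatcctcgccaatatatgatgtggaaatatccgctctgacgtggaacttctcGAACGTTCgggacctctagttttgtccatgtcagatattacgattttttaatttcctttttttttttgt
PRR5, chr5:8358547-8358846, - strand: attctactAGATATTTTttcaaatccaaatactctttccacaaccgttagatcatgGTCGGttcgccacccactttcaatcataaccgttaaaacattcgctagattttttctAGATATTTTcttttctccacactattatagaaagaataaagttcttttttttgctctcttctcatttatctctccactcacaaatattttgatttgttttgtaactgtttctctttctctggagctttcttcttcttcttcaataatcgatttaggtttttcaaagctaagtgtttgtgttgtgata
LHCA4, chr3:17495034-17495333, - strand: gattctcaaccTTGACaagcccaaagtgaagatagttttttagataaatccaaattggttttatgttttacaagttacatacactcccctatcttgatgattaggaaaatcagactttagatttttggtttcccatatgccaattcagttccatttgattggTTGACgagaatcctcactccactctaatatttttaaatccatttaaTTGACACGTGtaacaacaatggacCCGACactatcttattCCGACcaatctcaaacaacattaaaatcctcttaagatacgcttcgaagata

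The introns are those with large differences in their unspliced share at both sites, higher in CB-RNA for the first pair and lower for the second pair. Capitals mark the first 6 bases at the 5′ splice site and the last 3 bases at the 3′ splice site, and all 4 introns lie inside the coding span of the gene.
GPX6 intron 2, chr4:7010786-7010875, - strand: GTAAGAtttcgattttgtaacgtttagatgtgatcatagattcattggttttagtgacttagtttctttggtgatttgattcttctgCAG
COR15B intron 1, chr2:17709420-17709676, - strand: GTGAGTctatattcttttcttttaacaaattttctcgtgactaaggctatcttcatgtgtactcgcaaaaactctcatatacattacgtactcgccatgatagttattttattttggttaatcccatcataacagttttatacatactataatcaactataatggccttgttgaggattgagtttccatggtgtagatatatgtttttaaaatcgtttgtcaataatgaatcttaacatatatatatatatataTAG
HMA1 intron 1, chr4:17545753-17545851, - strand: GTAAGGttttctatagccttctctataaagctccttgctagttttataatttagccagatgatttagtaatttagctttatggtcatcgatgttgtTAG
AT2G16940 intron 10, chr2:7344579-7344673, - strand: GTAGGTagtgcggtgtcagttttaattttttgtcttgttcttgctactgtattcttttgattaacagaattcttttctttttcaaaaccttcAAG

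The tables held 31261639 exonic and 10033186 intronic reads for CB-RNA and 11171791 exonic and 3514627 intronic reads for RNAe+RNAf, so CB-RNA was 2.80 times deeper. Intronic over exonic reads came to 0.321 in CB-RNA and 0.315 in RNAe+RNAf. The genes compared held 99.7% of the exonic reads in either table, with a median of 775.0 exonic reads per gene in CB-RNA and 315.0 in RNAe+RNAf. Of 15962 genes counted in CB-RNA and 16233 in RNAe+RNAf, 303 were counted in CB-RNA alone and 574 in RNAe+RNAf alone. A gene below the authors' expression minimum is listed as uncounted, with no read number, and gets no fold here. Genes known from roots, as a check of the tissue, summed to 1051 RPM in CB-RNA (RPM is the exonic reads of a gene per 1000000 exonic reads of the compared genes) and 1026 in RNAe+RNAf over 12 of 16 genes that passed. None of these 12 was at least 2-fold higher in CB-RNA and 1, PRP3 (20 reads in CB-RNA and 21 in RNAe+RNAf), was lower. That is 0% and 8.33%, beside 3.05% higher and 9.70% lower of all genes compared, so these counts alone say little about tissue. Their median log2 ratio was -0.10, and 0.04 after centring on the median gene. PLT2 and IRT1 of this list were counted in RNAe+RNAf alone, with 59 and 4 exonic reads, and none was counted in CB-RNA alone.

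Gene abundance agreed broadly between the preparations. The exonic share of a gene (in RPM) had a Spearman rho of 0.949 and a Pearson r of 0.945 on the log2 scale across the 14868 genes, which are not independent replicates. The log2 ratio of the share, CB-RNA over RNAe+RNAf, had a median of -0.15 and an SD of 0.66, and the median size of the difference was 1.3-fold. Most genes, 12973 or 87.3%, lay within 2-fold. The spread exceeded the SD of 0.14 that counting alone would give, and the counting interval left out equality for 69.9% of the genes.

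At least 2-fold higher in CB-RNA were 453 genes (3.05% of the genes compared), and at least 2-fold lower were 1442 (9.70%). After centring on the median gene these were 674 higher and 1006 lower, so that 40.1% of the genes past 2-fold were higher, against 23.9% before centring. The counting interval itself lay past 2-fold for 250 genes higher (1.68%) and 741 lower (4.98%). The 453 genes higher in CB-RNA took 9.82% of its exonic reads and 3.34% of those of RNAe+RNAf. The 1442 lower genes took 3.25% in CB-RNA and 8.33% in RNAe+RNAf.

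**Figure D1:**
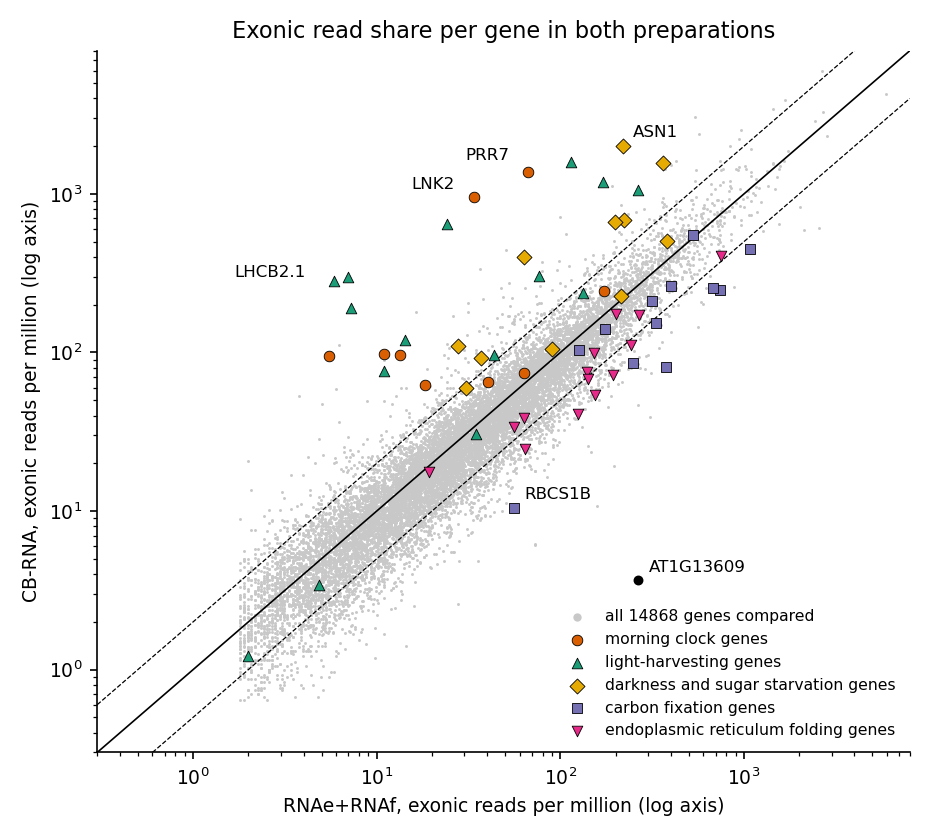
Exonic reads per 1000000 (RPM) of each gene, CB-RNA on the vertical and RNAe+RNAf on the horizontal axis, both logarithmic, where grey points are the 14868 genes, the solid line is equality and the dashed lines are 2-fold. Morning clock, light-harvesting and darkness and sugar starvation genes lie mostly above the line, carbon fixation and endoplasmic reticulum folding genes mostly below it, with LHCB2.1 (48.5-fold higher) and AT1G13609 (72.7-fold lower) at the extremes.

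The difference between both preparations was larger than that of either from RNAe. Over 14126 genes with at least 20 exonic reads in all 5 tables, the SD of the log2 ratio was 0.65 for CB-RNA over RNAe+RNAf, 0.52 for CB-RNA over RNAe and 0.56 for RNAe+RNAf over RNAe. The share of genes past 2-fold was 12.5%, 6.28% and 7.36% in that order. Against RNAf the spread was wider, at 1.03 for CB-RNA and 1.14 for RNAe+RNAf, and against mRNA it was 1.5 for CB-RNA and 1.41 for RNAe+RNAf. These pairs share tables and are not independent. The place of CB-RNA and RNAe+RNAf beside RNAe and RNAf is given as a description, since the values of CB-RNA and RNAe+RNAf chose the genes. Among 449 genes higher in CB-RNA with both values, RNAe+RNAf lay below RNAe and RNAf for 383 (85.3%), and CB-RNA lay above both for 225 (50.1%). Among 1399 lower genes, RNAe+RNAf lay above both for 1007 (72.0%) and CB-RNA below both for 845 (60.4%). Over all 14635 genes with both values, RNAe+RNAf was below both in 23.8% and above both in 31.5%, and CB-RNA was below both in 29.1% and above both in 18.4%.

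Depth and gene structure moved with the spread. Genes with 1000 or more exonic reads in the preparation with fewer had an SD of 0.58 (0.04 from counting alone), with 2.62% higher and 7.25% lower. The 3162 genes with 20 to 99 reads had an SD of 0.80 (0.25 from counting alone), with 5.25% and 13.7%. Genes with 1 intron had a median log2 ratio of -0.29 and an SD of 0.84, and 19.6% of them were at least 2-fold lower in CB-RNA. Genes with 10 and more introns had -0.10 and 0.52, and 5.26% were lower. Counting alone gives an SD of 0.24 for genes with 1 intron and 0.07 for those with 10 and more. Reads were summed over all introns of a gene, so intron number and depth are tied here. With genes ordered by mRNA over RNAe in 5 equal classes, the median was -0.04 in the lowest class and -0.32 in the highest. Ordered by RNAf over RNAe it ran the other way, from -0.23 in the lowest class to -0.05 in the highest. The medians of the 5 chromosomes lay between -0.16 and -0.12. The part of gene length or RNA stability in the difference was not tested.

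The morning clock genes showed the largest median of all lists. Of 13 genes, 9 passed the minimum in both preparations, 6 of these were at least 2-fold higher in CB-RNA, none was lower (66.7% higher, beside 3.05% of all genes), and the median log2 ratio was 2.84, beside -0.15 over all genes. LNK2 (AT3G54500), a coactivator of clock genes, had 958 RPM in CB-RNA and 34.0 in RNAe+RNAf, a 28.2-fold difference (25.4 to 31.2). PRR7, a pseudo-response regulator that represses CCA1 and LHY, had 1371 RPM in CB-RNA and 66.4 in RNAe+RNAf, 20.7-fold (19.2 to 22.3). Both rest on many reads, 29882 in CB-RNA and 379 in RNAe+RNAf for LNK2, and 42759 and 739 for PRR7. LNK4 (AT5G06980) was 17.2-fold higher, EPR1 (also RVE7), a Myb-like factor related to CCA1, 8.95-fold, LNK1 (AT5G64170) 7.16-fold and RVE8, an activator of evening genes, 3.41-fold. Their counting intervals all lay past 2-fold. The 3 remaining genes that passed, LCL1 (also RVE4), RVE1 and AT5G52660, had log2 ratios of 0.50, 0.69 and 0.22. RVE2, of the same Myb-like family but not a member of this list, was 7.84-fold lower in CB-RNA. The absence of lower genes thus holds for the chosen members only.

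The other 4 morning genes were counted in CB-RNA and uncounted in RNAe+RNAf. CCA1 had 2066 exonic reads in CB-RNA, PRR9 had 1042, LNK3 (AT3G12320) had 656 and LHY had 497. CCA1 was among the genes with the most reads of the 303 counted in CB-RNA alone. Its share was 66.3 RPM in CB-RNA, 44.2 in RNAe and 63.8 in RNAf, so it was counted in the other chromatin-bound tables and uncounted in RNAe+RNAf. Over the 9 genes that passed, the median log2 ratio to RNAe was 0.43 for CB-RNA and -2.77 for RNAe+RNAf.

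Genes listed under the afternoon and evening clock were mixed, and the time of day of each member was not checked here. Of 15 genes 14 passed, 4 were at least 2-fold higher in CB-RNA and 1 lower (28.6% and 7.14%, beside 3.05% and 9.70% of all genes), and the median was 0.42. The highest ratio was that of CDF3, a DOF repressor of flowering genes, so the list maximum rests on a gene whose phase was not checked. CDF3 had 47.6 RPM in CB-RNA and 5.03 in RNAe+RNAf (9.46-fold, 7.24 to 12.6). GI, a regulator of the clock and of flowering, had 273 in CB-RNA and 52.2 in RNAe+RNAf (5.23-fold, 4.80 to 5.69), and PRR5 had 129 and 31.0 (4.17-fold, 3.73 to 4.67). CCR1 (also GRP8), an RNA-binding protein that peaks in the evening, was 2.02-fold higher, with an interval of 1.90 to 2.15. PCL1 (also LUX), of the evening complex, was 2.09-fold lower, with 10.4 RPM in CB-RNA and 21.7 in RNAe+RNAf. TOC1, ELF3 and PRR3 did not pass 2-fold, with log2 ratios of -0.73, -0.47 and -0.71. Outside this list, 3 of the 12 genes named for the clearest decrease are given here by their values, as single genes. RVE2, a Myb-like factor of the CCA1 family, had 39.0 RPM in CB-RNA and 306 in RNAe+RNAf (7.84-fold lower, 7.34 to 8.38). JMJD5, of the oxygenases that use 2-oxoglutarate and iron, had 10.8 in CB-RNA and 159 in RNAe+RNAf (14.8-fold lower, 13.1 to 16.6). AT1G07050, of the CCT motif family, had 6.16 and 72.6 (11.8-fold lower, 10.1 to 13.9). The cold-regulated COR27 and AT4G33980 were 4.52-fold and 2.96-fold lower in CB-RNA.

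Light signalling genes were higher in CB-RNA more often than lower. Of 33 genes 26 passed, 7 were at least 2-fold higher and 2 lower (26.9% and 7.69%, beside 3.05% and 9.70% of all genes), and the median was 0.58. The phytochrome-interacting factor PIF4, which promotes growth in the dark and in warmth, had 335 RPM in CB-RNA and 36.5 in RNAe+RNAf (9.17-fold, 8.31 to 10.2). PIL6 (also PIF5) was 8.72-fold higher and PIF7 2.62-fold, and the B-box genes STO (BBX24), STH (BBX25) and LZF1 (BBX22) were 5.57-fold, 4.96-fold and 3.22-fold higher. HY5, the factor that promotes greening in light, had 9.08 in CB-RNA and 24.6 in RNAe+RNAf (2.71-fold lower, 2.29 to 3.21), and the flavonoid enzyme gene F3H was 2.43-fold lower. The photoreceptor genes PHYB, CRY2 and PHOT2 stayed within 2-fold, with log2 ratios of -0.12, 0.45 and 0.01. The other list members TT4, a chalcone synthase gene of flavonoid synthesis, and ELIP1, of the chlorophyll-binding proteins, were counted in RNAe+RNAf alone, with 86 and 23 exonic reads.

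Photosynthesis genes differed in direction between roles. Of 46 genes 43 passed, 19 were at least 2-fold higher in CB-RNA and 7 lower (44.2% and 16.3%, beside 3.05% and 9.70% of all genes), and the median was 0.85. The split by role was made after the values were seen. Among 15 light-harvesting genes, which bind chlorophyll around both photosystems, 11 were higher, none was lower, and the median was 2.79. LHCB2.1 had 283 RPM in CB-RNA and 5.84 in RNAe+RNAf (48.5-fold, 38.0 to 62.8). LHCB3 had 643 in CB-RNA and 24.0 in RNAe+RNAf (26.8-fold, 23.8 to 30.4), and LHCA4 had 1591 and 114 (13.9-fold, 13.2 to 14.7). The minor members Lhca5, Lhca6 and LHCB4.3 had log2 ratios of -0.19, -0.51 and -0.70. Of 16 photosystem subunit genes 13 passed, 7 were higher, none was lower and the median was 1.20, led by PSAE-1 (3.67-fold) and PSBW (3.14-fold). Of 3 electron transfer genes FNR2 was 2.37-fold higher, PETC and FNR1 had log2 ratios of -0.22 and -0.52, and the median was -0.22.

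Carbon fixation genes went the other way. Of 12 genes, 7 were at least 2-fold lower in CB-RNA and none was higher (58.3% lower, beside 9.70% lower and 3.05% higher of all genes). The median was -1.18. These genes are part of the split by role, made after the values were seen. RBCS1B, of the small subunit of Rubisco, had 10.5 RPM in CB-RNA and 55.6 in RNAe+RNAf (5.28-fold lower, 4.61 to 6.06), and RBCS2B had 80.9 and 378 (4.67-fold lower). PGK1, GAPB and SBPASE, enzymes of the Calvin cycle, were 2.90-fold, 2.41-fold and 2.15-fold lower, and RCA, the activase of Rubisco, had a log2 ratio of 0.06. CA1, a carbonic anhydrase outside the list that was chosen after its values were seen, had 608 RPM in CB-RNA and 2561 in RNAe+RNAf, a log2 ratio of -2.07. The LHCB2 and RBCS genes have near-identical copies, and reads mapped to more than 1 place were left out by the authors, so their levels are uncertain. The same limit applies to any other named gene with such copies, in this and the other lists, which was not checked. LHCA1 and LHCB6 were 6.93-fold and 6.98-fold higher in CB-RNA.

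**Figure D2:**
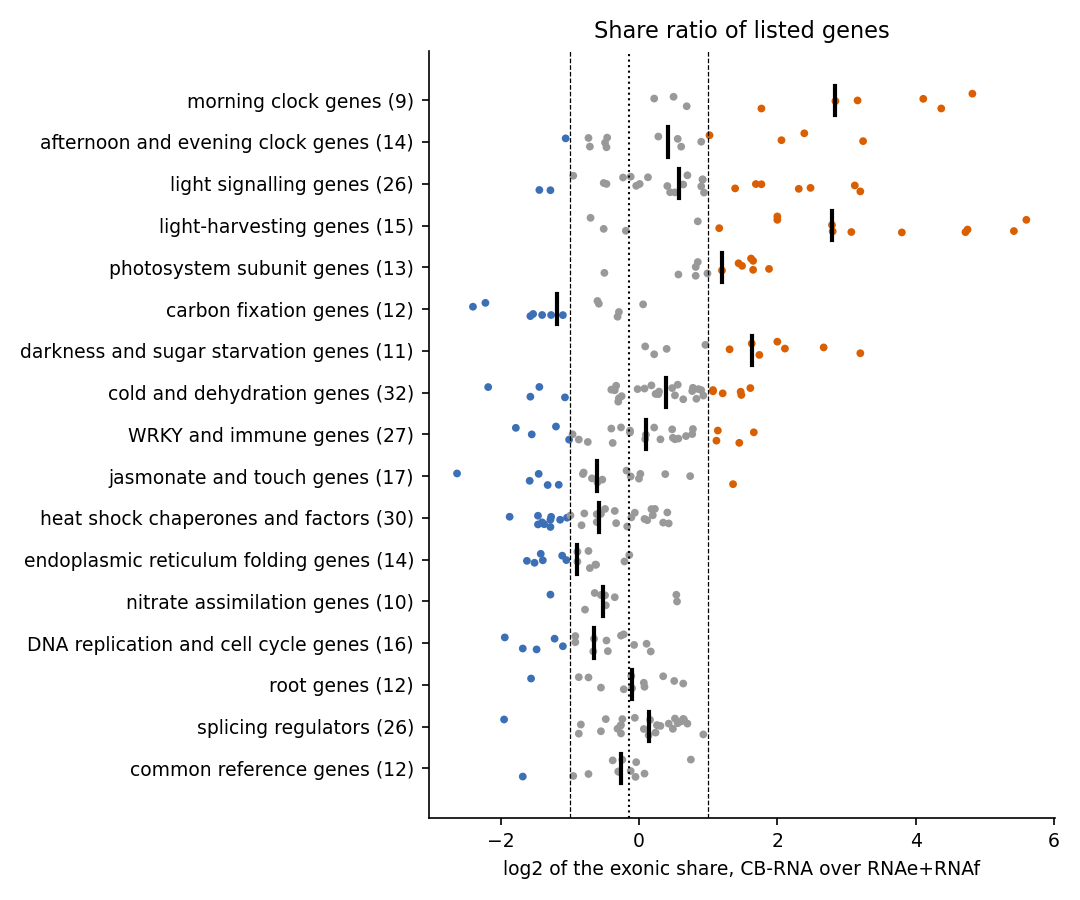
Log2 ratio of the exonic share, CB-RNA over RNAe+RNAf, for each gene that passed the minimum in each list, with the number of genes in brackets, where points are genes (orange at least 2-fold higher in CB-RNA, blue at least 2-fold lower, grey within 2-fold), short black bars are list medians, the dotted line is the median of all genes (-0.15) and the dashed lines are 2-fold. Morning clock (2.84), light-harvesting (2.79) and darkness and sugar starvation genes (1.63) have the highest medians, and carbon fixation genes (-1.18) the lowest.

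Genes of darkness and sugar starvation lay above equality in CB-RNA. Of 12 genes 11 passed, all 11 had a ratio above 1, 7 were at least 2-fold higher (63.6%, beside 3.05% of all genes), and the median was 1.63. ASN1, the asparagine synthase that stores nitrogen when carbon is short, had 2014 RPM in CB-RNA and 219 in RNAe+RNAf (9.21-fold, 8.85 to 9.60). BCAT-2, which breaks down branched-chain amino acids, had 402 and 63.1 (6.37-fold), and SEN1, a gene of darkness and senescence, had 1562 and 362 (4.31-fold, 4.18 to 4.45). TPS11 was 3.99-fold higher, DIN10 3.34-fold, DIN4 3.09-fold and BCE2 (also DIN3) 2.48-fold. KIN10, a kinase that drives the starvation response, had a log2 ratio of 0.09.

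Chaperone and heat shock factor genes were past 2-fold in CB-RNA on the lower side, where 76.1% of all genes past 2-fold lay. Of 33 heat shock chaperones and factors 30 passed, none was at least 2-fold higher and 10 were lower (33.3%, beside 9.70% of all genes), with a median of -0.58. Hsp70-2 and HSFA2 were counted in RNAe+RNAf alone, with 16 and 15 exonic reads. CR88 (HSP90.5), the chloroplast HSP90, had 79.2 RPM in CB-RNA and 290 in RNAe+RNAf (3.67-fold lower, 3.48 to 3.86). HSP81-2 and HSP81-3, of the cytosol, were 2.74-fold and 2.43-fold lower, HSP60 of mitochondria was 2.59-fold lower, and HSP101 2.64-fold lower. The factors that switch on the heat response did not share one direction, with log2 ratios of 0.35 for HSF1, -0.06 for HSF3 and -1.04 for HSFA1D. Of 15 endoplasmic reticulum folding genes 14 passed, all 14 had a ratio below 1, 6 were at least 2-fold lower (42.9%), and the median was -0.89. CNX1, a calnexin that folds glycoproteins, had 40.7 in CB-RNA and 125 in RNAe+RNAf (3.08-fold lower, 2.85 to 3.32). The HSP70 chaperones BIP2 and BIP1 were 2.85-fold and 2.67-fold lower, SDF2 2.62-fold and CRT1b 2.16-fold lower. Both lists were also lower in CB-RNA than in RNAe, with median log2 ratios of -0.75 for the heat shock list and -0.52 for the folding list. RNAe+RNAf over RNAe gave -0.18 and 0.32. Over all genes, the medians against RNAe were -0.10 for CB-RNA and 0.04 for RNAe+RNAf. Not every list with a negative median lay below RNAe in CB-RNA. Carbon fixation genes gave 0.12 for CB-RNA and 0.77 for RNAe+RNAf, and nitrate assimilation genes 0.09 and 0.71.

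Cold and dehydration genes past 2-fold lay on both sides. Of 33 genes 32 passed, 6 were at least 2-fold higher in CB-RNA, 4 were lower (18.8% and 12.5%, beside 3.05% and 9.70% of all genes), and the median was 0.38. COR413-PM1 and COR413IM1, of the plasma membrane and the chloroplast envelope, were 3.06-fold and 2.79-fold higher. Among the lower genes were COR27, with 11.2 RPM in CB-RNA and 50.6 in RNAe+RNAf, and GolS2, of raffinose synthesis, at 2.71-fold lower. The drought gene LTI78 (also RD29A) had a log2 ratio of 0.86, and COR15A had 48 exonic reads in CB-RNA and 36 in RNAe+RNAf.

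Of 21 jasmonate and touch genes 17 passed, 1 was at least 2-fold higher in CB-RNA and 5 were lower (5.88% and 29.4%, beside 3.05% and 9.70% of all genes), with a median of -0.60. LOX2, the chloroplast lipoxygenase that begins jasmonate synthesis, had 23.7 RPM in CB-RNA and 146 in RNAe+RNAf (6.19-fold lower, 5.67 to 6.76). AOC2 and AOC1, of the next steps, were 2.99-fold and 2.50-fold lower. The touch gene TCH3, a calmodulin-like protein, was the 1 higher gene, with 507 in CB-RNA and 197 in RNAe+RNAf (2.57-fold). VSP2, JAZ5 and JAZ7 were counted in RNAe+RNAf alone, with 47, 28 and 24 exonic reads.

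Of 28 WRKY and immune genes 27 passed, 4 were at least 2-fold higher and 4 lower (14.8% each, beside 3.05% and 9.70% of all genes), and the median was 0.10. FLS2, the flagellin receptor, was 3.16-fold higher and WRKY22 2.74-fold higher in CB-RNA, while the salicylic acid related WRKY70 and WRKY54 were 3.43-fold and 2.93-fold lower. WRKY70 had 21.6 RPM in CB-RNA and 74.3 in RNAe+RNAf. ACD6, an ankyrin protein of cell death and defence outside this list, had 6.13 in CB-RNA and 72.6 in RNAe+RNAf (11.8-fold lower, 10.1 to 13.9).

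Replication and ribosomal protein genes past 2-fold were mostly lower in CB-RNA. All 16 DNA replication and cell cycle genes passed, none was at least 2-fold higher, 5 were lower (31.2%, beside 9.70% of all genes), and the median was -0.66. PCNA1, the sliding clamp of replication, had 60 exonic reads in CB-RNA and 82 in RNAe+RNAf (3.83-fold lower in share, 2.71 to 5.43), and MCM4, of the replicative helicase, had 890 and 1019 (3.21-fold lower, 2.93 to 3.51). The B-type cyclin and kinase genes CYCB1;1, CDKB2;1 and CDKB2;2 had log2 ratios of -0.26, 0.17 and 0.11. Among genes whose RefSeq product names a ribosomal protein, leaving out products that name an organelle, 250 of 291 passed, 95 were at least 2-fold lower (38.0%, beside 9.70% of all genes), 2 were higher, and the median was -0.84. The gene with the clearest difference among these was AT1G15930, with 46.7 RPM in CB-RNA and 264 in RNAe+RNAf (5.65-fold lower, 5.30 to 6.02). The shift was smaller in intronic share, with a median of -0.49 over 233 ribosomal protein genes with at least 20 intronic reads in both. Of these, 37 were at least 2-fold lower and 3 higher, beside 8.83% and 3.37% of all genes.

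The remaining lists had at most 1 gene past 2-fold each. None of 10 nitrate assimilation genes that passed, of 11, was at least 2-fold higher and 1, GLU1 (glutamate synthase), was 2.42-fold lower (10%, beside 9.70% of all genes), with a median of -0.51. Of 26 splicing regulators, all of which passed, none was higher and 1 lower, SCL28 with 82 exonic reads in CB-RNA and 113 in RNAe+RNAf, and the median was 0.15. Of 12 common reference genes none was higher and 1 lower, AT5G60390, a translation elongation factor gene, at 3.21-fold, with a median of -0.27. ACT2 and ACT8 had log2 ratios of -0.04 and 0.08, and UBQ10 had 0.75.

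Among the 12 genes whose counting interval lay farthest above 1, those not yet named were LHCB2.2 (42.9-fold), LHCB2.3 (26.4-fold), AT3G46370, a leucine-rich repeat kinase (18.0-fold), AT1G13650, uncharacterized (14.1-fold), and AT1G73480, an alpha/beta hydrolase (11-fold). At the other end, AT1G13609, a defensin-like gene with 1 intron, had 114 exonic reads in CB-RNA and 2960 in RNAe+RNAf. Its share of 3.66 RPM in CB-RNA was 72.7-fold (60.3 to 88.4) below the 266 in RNAe+RNAf, and it had 3.13 in RNAe and 1.59 in RNAf. ECS1, the phosphoglycerate mutase family gene AT3G60420, PnsL3, AT2G23910 and the cysteine proteinase gene CP1 were between 7.37-fold and 10.6-fold lower in CB-RNA. The genes counted in RNAe+RNAf alone with the most reads included XID, a myosin, with 661 exonic reads, and PCC1, named pathogen and circadian controlled, with 281.

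**Figure D3:**
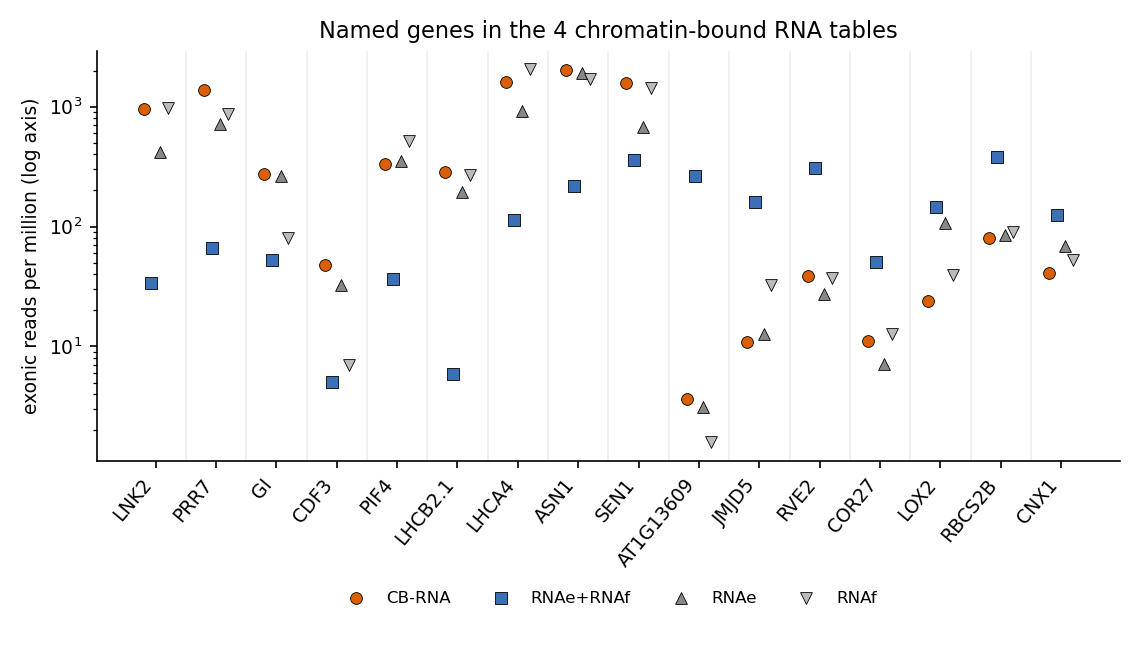
Exonic RPM (logarithmic axis) of 16 named genes in CB-RNA, RNAe+RNAf, RNAe and RNAf. From LNK2 to SEN1 the RNAe+RNAf point is the lowest of the 4, as for LHCB2.1 at 283 in CB-RNA and 5.84 in RNAe+RNAf, and from AT1G13609 to CNX1 it is the highest, as for AT1G13609 at 3.66 in CB-RNA and 266 in RNAe+RNAf.

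Intronic reads of the same genes, which the choice of genes did not use, were compared in the same way. Of the 453 genes higher in CB-RNA, 393 had at least 20 intronic reads in both preparations, and 389 of these (99%) were higher in intronic share too, 253 of them by at least 2-fold. Of the 1442 lower genes 1220 had enough intronic reads, 1199 (98.3%) were lower in intronic share, and 714 were so by at least 2-fold. Over all 13649 genes with enough intronic reads, 3.37% were at least 2-fold higher in intronic share and 8.83% lower. PRR7 had 7130 intronic reads in CB-RNA and 80 in RNAe+RNAf, a log2 ratio of the intronic share of 4.96. JMJD5 had 130 and 441, a log2 ratio of -3.28. The list medians in intronic share were 2.39 for morning clock genes, 3.39 for light-harvesting genes, 1.45 for darkness and sugar starvation genes, -1.35 for carbon fixation genes, -0.69 for endoplasmic reticulum folding genes and -0.36 for heat shock genes. Intronic and exonic reads came from the same pooled samples, so this is no replicate.

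The exonic reads of a gene, which chose it, were also laid out by intron as a description. At the 8 introns of PRR7 the exonic share was between 10.9-fold and 29.6-fold higher in CB-RNA, at the 6 introns of LNK2 (AT3G54500) between 17.7-fold and 56.3-fold, and at the 9 introns of ASN1 between 7.06-fold and 15.4-fold. At the 9 introns of CA1 it was between 2.40-fold and 5.80-fold lower.

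**Figure D4:**
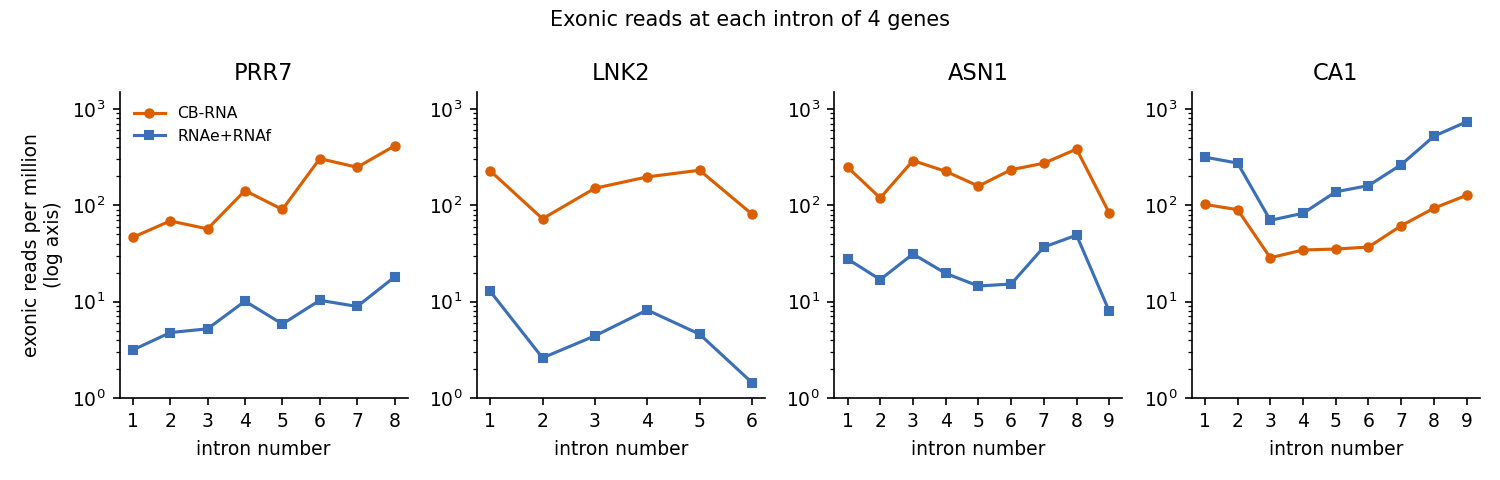
Exonic RPM (logarithmic axis) beside each intron of PRR7, LNK2, ASN1 and CA1, in CB-RNA (orange circles) and RNAe+RNAf (blue squares). CB-RNA lies above RNAe+RNAf at each intron of the first 3 genes and below it at each intron of CA1, by 2.40-fold to 5.80-fold.

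The upstream windows of the differing genes were searched for the 6 motifs named above. The evening element was found in 33 of 452 windows of genes higher in CB-RNA (7.30%), 41 of 1439 windows of lower genes (2.85%) and 442 of 14812 windows of all genes compared (2.98%). The G-box was in 11.1% of windows of higher genes, 7.71% of lower and 8.09% of all, and the ABRE in 15.5%, 11.1% and 10.6%. The heat shock element (9.51%, 11% and 11%), the W-box (226 of 452, 48.2% and 49.8%) and the DRE core (13.7%, 15.1% and 15.0%) varied less. The evening element stood in the window shown above of PRR5, which was higher in CB-RNA, with 2 matches. PRR7 and LHCA4 each had 1 G-box, 201 and 88 bases before the gene start. Of 13 morning clock genes 6 had a G-box and 1 an evening element, and of 14 genes listed as afternoon and evening 2 and 6. The motifs did not follow direction in every list. Of 15 endoplasmic reticulum folding genes, a list lower in CB-RNA, 6 had a G-box. Of 33 heat shock chaperones and factors, with none at least 2-fold higher, 5 had an evening element. A match of letters is a description and not a binding site.

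The splicing state was compared intron by intron. At the 5′ splice site, 64033 introns of 12363 genes had at least 20 exonic reads in both preparations, with a median SS ratio of 0.263 in CB-RNA and 0.246 in RNAe+RNAf. The median within-intron difference was 0.0124, and the ratio was higher in CB-RNA for 54.4% and lower for 45.2% of introns. At the 3′ splice site the medians over 65477 introns were 0.288 in CB-RNA and 0.274 in RNAe+RNAf, with a median difference of 0.0103. Spearman rho across introns was 0.763 at the 5′ and 0.753 at the 3′ site. Introns of a gene share their RNA and are not independent.

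Agreement of single introns depended on depth. At the 5′ site, rho was 0.689 for introns with 20 to 49 exonic reads in the preparation with fewer, 0.806 with 50 to 99, 0.885 from 100 up to 500 and 0.949 with 500 and more. The SD of the difference in intronic share (intronic over intronic plus exonic reads) was 0.10 in the shallowest class, where counting alone gives 0.0728, and 0.0408 in the deepest, where counting gives 0.0141. The sign of the median shift turned only in the deepest class. From 100 up to 500 exonic reads the median difference was 0.00668 at the 5′ and 0.00568 at the 3′ site. Among the 563 introns with 500 and more exonic reads, the median 5′ difference was -0.00314 and 45.5% were higher in CB-RNA. At the 3′ site it was -0.00660 over 644 introns. In this class the ratio of summed reads was 0.317 in CB-RNA and 0.325 in RNAe+RNAf at the 5′ site. At the 3′ site the summed ratio was 0.366 and 0.359.

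**Figure D5:**
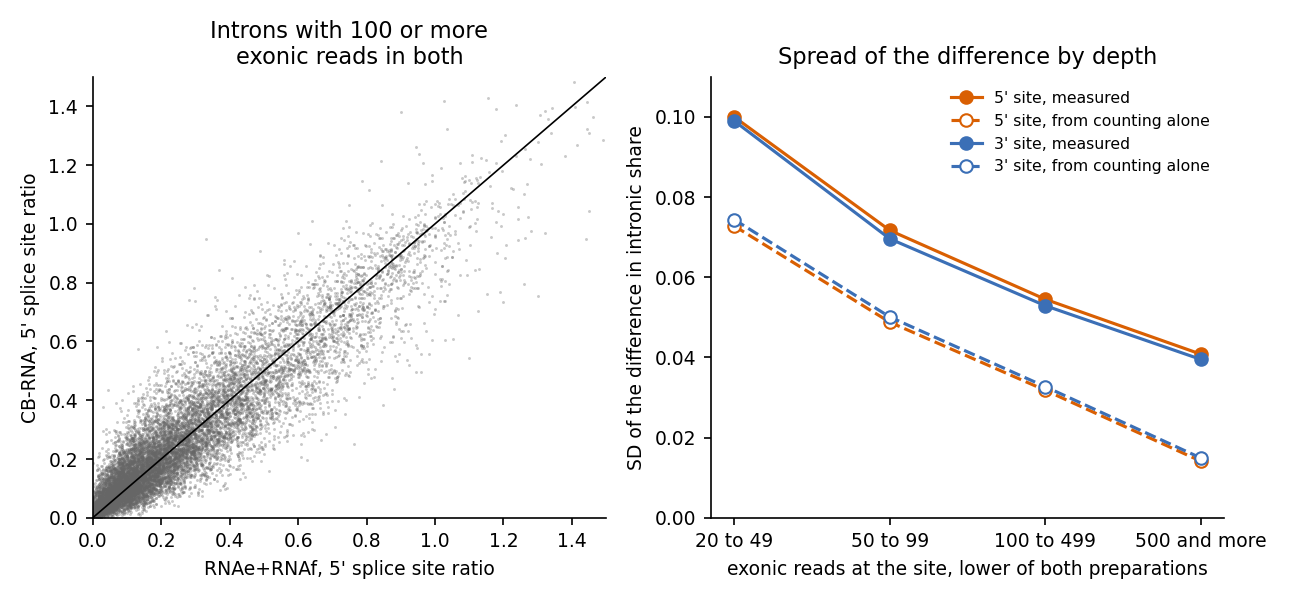
Left, the 5′ SS ratio of introns with at least 100 exonic reads at the site in both, CB-RNA against RNAe+RNAf, with the line of equality (values above 1.5 are not drawn). Right, the SD of the difference in intronic share by depth at the 5′ and 3′ sites, measured (solid) and from counting alone (dashed), falling at the 5′ site to 0.0408 measured and 0.0141 from counting.

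The splicing ratios of genes that were higher or lower in share are given as a description. At the 5′ site, 1374 introns of the genes higher in CB-RNA had a median ratio of 0.317 in CB-RNA and 0.337 in RNAe+RNAf, and 4051 introns of lower genes had 0.250 in CB-RNA and 0.214 in RNAe+RNAf. The exonic reads enter both measures, so these are not independent.

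The counting interval of the difference in intronic share left out 0 at both sites, the same way, for 2445 introns higher in CB-RNA and 2086 lower. It lay past 0.1 at both sites for 80 introns higher in CB-RNA (0.136% of 58757) and 38 lower (0.0647%). The 80 lay in 80 genes, 69 of them within 2-fold in exonic share, 2 higher and 9 lower. Of all introns compared, 4958 (8.44%) lay in genes past 2-fold. In these 80, the median intronic share at the 5′ site was 32.4% in CB-RNA and 3.43% in RNAe+RNAf, and in the 38 it was 9.61% in CB-RNA and 37.5% in RNAe+RNAf. Their median lengths were 93.0 bases and 92.5 bases, beside 100 over all introns compared. The median of the lowest of the 4 exonic counts was 34.0 and 34.5 reads, beside 47.0 over all, so most are thinly covered.

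The 5 introns with the clearest increase were 89 to 257 bases long. Intron 2 of GPX6, a glutathione peroxidase, had 41 intronic and 50 exonic reads at the 5′ site in CB-RNA and 1 intronic and 24 exonic reads in RNAe+RNAf. The intronic share was 45.1% (35.2% to 55.3%) in CB-RNA and 4.0% (0.710% to 19.5%) in RNAe+RNAf, and 31.2% in RNAe. Intron 1 of COR15B, a cold-regulated chloroplast protein, had 43.4% in CB-RNA (89 of its reads intronic) and 4.55% in RNAe+RNAf (1 read), with 46.9% in RNAe and 32.8% in RNAf. Intron 4 of AT1G19680, a RING protein, had 37.8% in CB-RNA and 0 of 23 reads in RNAe+RNAf, with an interval up to 14.3%. Intron 3 of EMP1, of the endomembrane protein 70 family, had 30.2% in CB-RNA and 0 of 69 reads in RNAe+RNAf, with an interval up to 5.27%, and intron 11 of AT5G38840 had 40.7% in CB-RNA and 0 of 34 reads in RNAe+RNAf, with an interval up to 10.2%.

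The 5 introns with the clearest decrease were 81 to 99 bases long. Intron 1 of HMA1, a heavy metal ATPase, had 3.23% intronic reads at the 5′ site in CB-RNA (0.889% to 11%) and 37.8% in RNAe+RNAf (25.1% to 52.4%). RNAe had 20.8% there (9.24% to 40.5%), from 5 intronic and 19 exonic reads. At the 3′ site the intronic share was 3.51% in CB-RNA, 48.8% in RNAe+RNAf and 9.52% in RNAe. Intron 10 of AT2G16940, a splicing factor of the CC1-like kind, was the best covered, with 48 intronic and 429 exonic reads in CB-RNA and 47 and 74 in RNAe+RNAf. Its intronic share was 10.1% in CB-RNA, 38.8% in RNAe+RNAf, 24.3% in RNAe and 0.113% in RNAf. Intron 2 of ICK5, a cyclin-dependent kinase inhibitor, had 7.14% in CB-RNA and 44.7% in RNAe+RNAf, intron 3 of AT4G37190 had 3.70% and 38.9%, and intron 1 of AT2G24060, a translation initiation factor 3 protein, had 9.16% and 37.3%. The ends of all 10 are GT and AG. Their GC content lay between 23.5% and 34.8%, beside a median of 33.1% over the introns compared.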

How the data were processed

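The authors trimmed reads with Trimmomatic 0.39, mapped them with HISAT2 2.2.0 to TAIR10, left out reads mapped to several places, and used SAMtools 1.3.1 and StringTie. Per the file headers and methods, the deposited tables hold, for each intron of the longest transcript, whole-number exonic and intronic read counts at the 5′ and 3′ splice site and their ratio, pooled per group. Genes under the authors' expression minimum are uncounted, and the window width and the use of strand were not given in the sources used here. The deposited ratios equal intronic over exonic reads to within 5.00e-05. The libraries were directional.

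Read counts were summed per gene over both sites and divided by the sum over genes with at least 20 exonic reads in both preparations. Share ratios have exact binomial counting intervals, and differences in intronic share have Newcombe intervals, both at 95%. With 1 pooled set of values per group, no test was run. Named were the 12 genes each way whose interval lay farthest from 1, the 5 introns each way whose interval lay farthest from 0 at the weaker site, and members of the gene lists, which, like the comparison, were chosen with earlier results of these data known. The ribosomal protein genes were taken by RefSeq product instead of symbol. Of 22121 loci 22010 were found in RefSeq (TAIR10.1), where 98.8% of the introns run from GT to AG. The scripts were tested on simulated data. Python 3.11.15, pandas 2.3.3, numpy 2.4.6, SciPy 1.17.1 and matplotlib 3.10.9 were used. Alternatives were other read minimums, folds, windows, scalings and interval limits.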

Additional observations from a re-analysis of the deposited data

How the results depend on the processing

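No paired analysis was possible because each table holds 1 pooled set of values per group, and for the same reason no replicate could be left out. Of 84 alternative values 66 stayed within the range set for them, 18 moved, and 1 changed sign, the median of the root genes (-0.10, and 0.04 after centring), by less than the range set. The SD of the log2 share ratio was 0.64 with a minimum of 50 exonic reads and 0.61 with 100. Genes at least 2-fold higher in CB-RNA numbered 289 with a minimum of 100, where fewer genes were tested, 1398 at a fold of 1.5 and 123 at a fold of 3, and genes at least that much lower 3442 and 313 at these folds. Centring on the median gene gave 674 higher and 1006 lower, and leaving the 100 genes with the most reads out of the sum gave 520 and 1261. Of 16 list medians under 3 alternatives, that of the ribosomal protein genes after centring moved (-0.70, taken by product, a choice made after seeing the data). The median 5′ ratio difference was 0.00891 with a minimum of 50 and 0.00718 from summed reads, and the 3′ difference 0.00779 and 0.00525. Introns past the interval numbered 2445 higher and 2086 lower past 0, 4 and 0 past 0.2, and 20 and 14 with a minimum of 50. RNAe+RNAf had fewer reads than CB-RNA, and introns near 20 reads have wide intervals.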
